A study of Danio rerio with 2 samples.

Results

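The genes described here encode the soluble machinery of protein synthesis, namely the initiation, elongation and termination factors of the ribosome and the aminoacyl-tRNA synthetases. A probe was taken when its gene symbol in the array annotation began with eif or eef and a digit, with etf1, with farsa or farsb or with eprs, or was a synthetase symbol of the form aars, wars or sars2. The pattern took 177 of 43553 probes, which stand for 79 of 27312 genes and unnamed targets. No symbol beginning with eprs was among them. By RefSeq accession 2 of the 79 symbols belong to other kinds of gene, since eif2c3 is the Argonaute gene ago3b and hars2 is dtd1, which encodes a D-aminoacyl-tRNA deacylase.

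Zebrafish embryos gave the RNA, either F2 embryos of the line Tg(RE:HSE:EGFP), made in AB fish, or wild type (WT) embryos of the AB strain. The transgenic line carries a human fusion gene, RUNX1-Evi-1, with EGFP on the opposite side of a heat shock element promoter, which has no tissue preference and is followed by a CMV minimal promoter in each direction. Both groups received a heat shock at 38 °C for 1 hour, given at 16 hpf according to the description of the series, and both are labelled as 72 hpf. The line descends from few founders, not all F2 offspring showed EGFP after heat shock, and no selection by EGFP is described for the arrays. Total RNA was labelled with Cy3 and hybridized to Agilent zebrafish arrays, and 1 array per group was analysed here. The spread between embryos is therefore unknown and p-values are left out. The group cannot be told apart from the batch. In RNA from whole embryos, fewer cells of a type and less RNA per cell cannot be told apart either.

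Translation begins when eIF2 brings the initiator tRNA to the small ribosomal subunit, together with eIF1, eIF1A and the many-subunit scaffold eIF3, while the eIF4 proteins bind the cap of the mRNA and unwind its leader. eEF1A, recharged by the eEF1B subunits, then delivers aminoacyl-tRNAs, eEF2 moves the ribosome along, and eRF1 releases the chain at a stop codon. The synthetases load each tRNA with its amino acid, most of them with separate genes for the cytosol and the mitochondrion. Cells regulate the process through kinases of eIF2 and eEF2 and through proteins that bind eIF4E.

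Each gene was read from its brightest probe, as a normalized log2 signal. A signal counted as above background when it passed a limit set by 169 probes for chemosensory receptors (odorant, taste or trace amine), the 95th percentile of their signal, which was 6.74 on the Tg-labelled array and 6.73 on the WT-labelled array. By this limit 56.7% of all probes were above background on the Tg-labelled array and 57.0% on the WT-labelled array. Of the 79 genes, 73 were above background on both arrays and 1 on the Tg-labelled array alone. The other 5 were above it on neither array, namely eef1da, eif2ak2, eif2c3, eif4e1b and vars2. Signed values are the Tg-labelled array minus the WT-labelled array on the log2 scale. For the genes hdac4 and h1fx, whose probes were all lower on the Tg-labelled array, it is opposite to the study's direction. One probe of h1fx read 10.02 on the Tg-labelled array and 11.36 on the WT-labelled array. The study's array levels for that gene are the same pair with the groups exchanged. The probes of hdac4 read 11.03 and 6.70 on the Tg-labelled array, and 11.37 and 7.88 on the WT-labelled array. For hdac4 the study's pair of levels matches neither probe, with the groups exchanged or not. The erythroid factor gene gata1a read 9.20 on the Tg-labelled array and 10.15 on the WT-labelled array (-0.95), which is the direction of the study's separate PCR measurements of gata1. These checks point opposite ways, and neither EGFP nor the fusion gene has a named probe. Whether the labels are exchanged is therefore unknown, an exchange would turn every sign given here, and the arrays are named by their labels throughout.

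None of the 74 genes above background was at least 2-fold higher on the Tg-labelled array, where 4.71% of all 16173 genes above background were. At least 2-fold lower there were 2 genes, eif4a2 and eif3s10, or 2.70% of the 74, against 3.56% of all genes. At a fold of 1.5, 5 genes were higher (6.76%, against 12.3% of all genes) and 9 were lower (12.2%, against 12.5% of all genes). The genes as a whole thus passed these folds no more often than genes did in general. Their median difference was -0.15, against -0.03 over all genes, and 49 of the 74 (66.2%) lay below 0, against 52.1% of all genes, 26 of which had equal deposited values and fell below 0 by the scaling shift of -0.001 alone. The middle of the distribution lay between -0.36 and 0.17 (quartiles), against -0.37 and 0.33 over all genes.

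**Figure D1:**
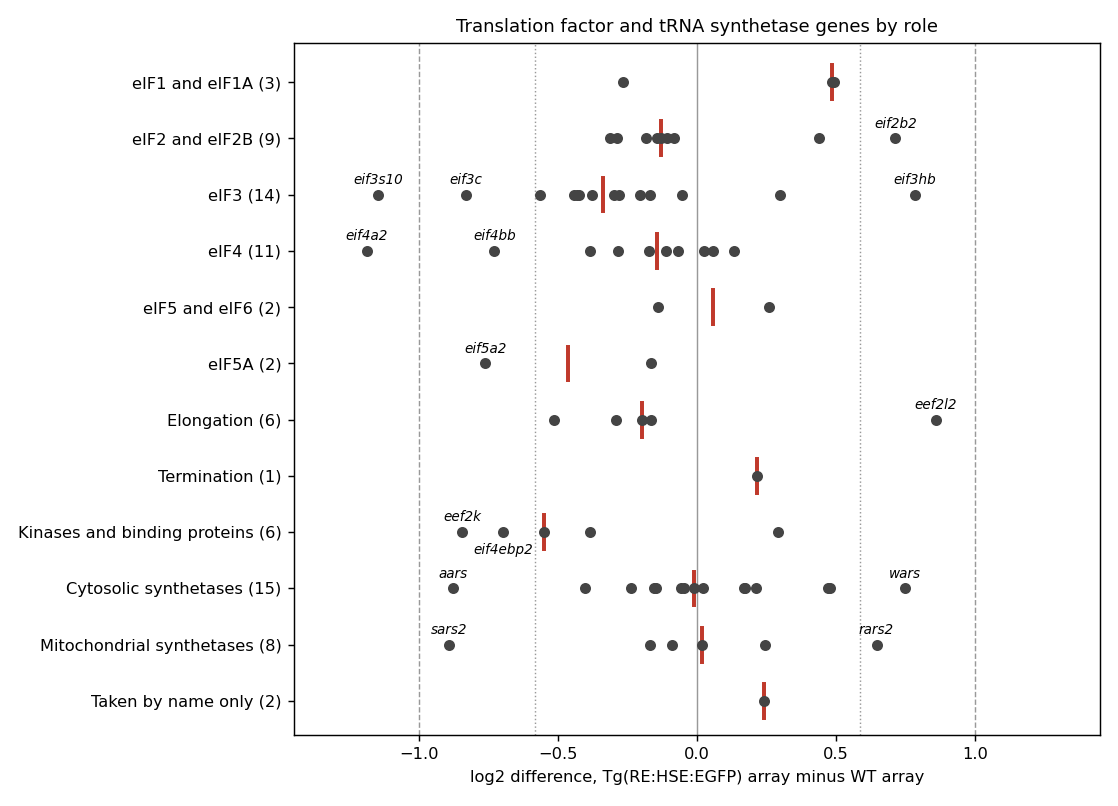
Log2 difference (Tg-labelled array minus WT-labelled array) of each of the 73 genes above background on both arrays, in rows by role with the number of genes that the name pattern took in parentheses. Each point is a gene, red bars are medians over the genes above background on at least 1 array, and dotted and dashed lines mark 1.5-fold and 2-fold. Only eif3s10 and eif4a2 lie beyond 2-fold, and the eIF3 row is centred to the left of 0.

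The initiation complex eIF3, which bridges the small subunit and the mRNA, was the group with most genes below 0. Of its 14 genes, all above background, 12 (85.7%) were lower on the Tg-labelled array, against 52.1% of all genes, and the median was -0.34. Differences under 1.5-fold were found in 11 of the 14, and in 12151 of all 16173 genes above background. The gene eif3s10 encodes the largest core subunit, eIF3a. Its brightest probe read 13.57 on the Tg-labelled array and 14.72 on the WT-labelled array, a 2.21-fold difference, and its other probes differed by -1.22 and -0.99. The 3 probes therefore lay close together, on both sides of 2-fold.

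Next was eif3c, another core subunit, at 14.97 on the Tg-labelled array and 15.80 on the WT-labelled array (1.78-fold lower), read by 1 probe. The eIF3i gene eif3s2 was at 15.32 on the Tg-labelled array and 15.89 on the WT-labelled array (-0.57), and its 2 other probes above background gave -0.50 and -0.62. The remaining core and outer subunits differed less, with eif3s6ip, the gene of eIF3l, at -0.44, eif3d at -0.43, eif3ja at -0.42, eif3ea at -0.38, eif3jb at -0.30 and eif3b at -0.28. At the small end were eif3ha (-0.21), eif3eb (-0.17) and eif3g (-0.06). The dimmer probes of eif3d and eif3eb were both at 0.06, and the other 4 probes of eif3ea lay between -0.17 and -0.05, so that these differences rest on the bright probes.

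Both exceptions lay above 0. The gene eif3hb, 1 of 2 genes for subunit h, read 10.49 on the Tg-labelled array and 9.70 on the WT-labelled array, 1.72-fold higher, and a second probe of similar brightness gave 0.83. The dim probes of eif3hb were at 0.23 and, for one above background on the WT-labelled array only, at -0.18. Its paralog eif3ha was much brighter, at 14.38 on the Tg-labelled array and 14.58 on the WT-labelled array. The subunit gene eif3m was at 0.30.

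**Figure D2:**
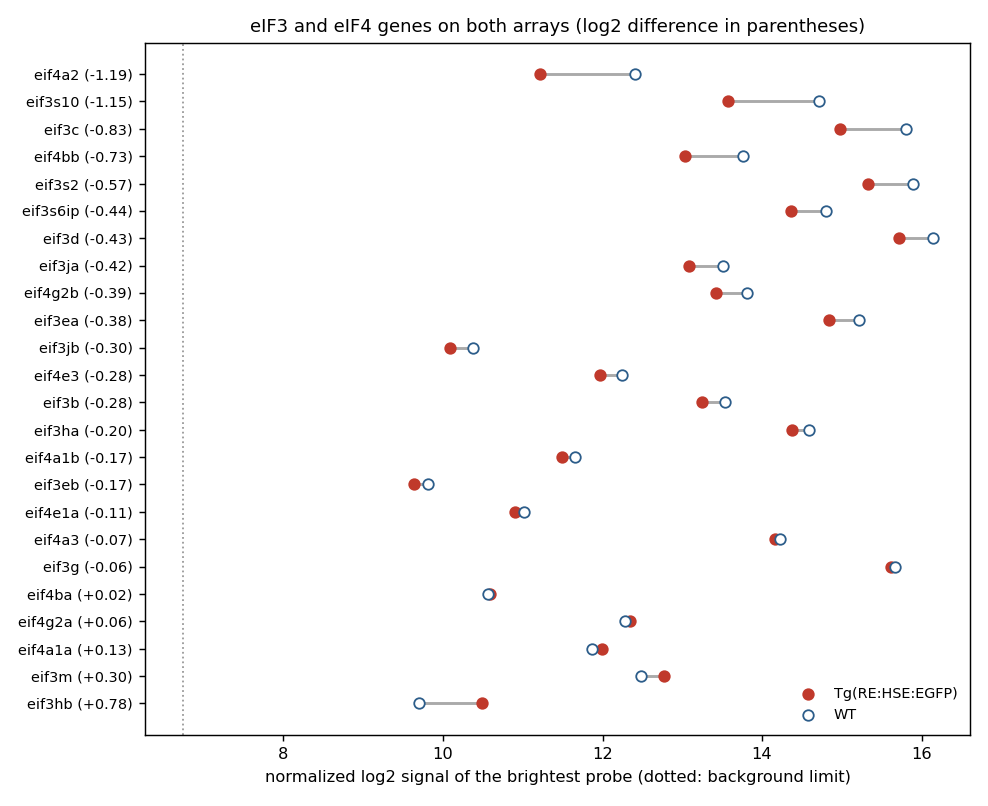
Normalized log2 signal of the brightest probe of each eIF3 and eIF4 gene above background on the Tg-labelled array (filled red) and the WT-labelled array (open blue), ordered by the difference given in parentheses. The dotted line is the background limit of the Tg-labelled array, and most eIF3 pairs have the red point to the left, with eif3m and eif3hb the other way round.

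Among the factors of the cap complex, the paralogs of the RNA helicase eIF4A differed from each other. The gene eif4a2 had the largest difference of all 74 genes. It read 11.22 on the Tg-labelled array and 12.40 on the WT-labelled array, 2.28-fold lower, and its other probe read 10.55 on the Tg-labelled array and 12.23 on the WT-labelled array (-1.68). The eIF4A1 genes showed no such difference. The level of eif4a1a was 11.998 on the Tg-labelled array and 11.86 on the WT-labelled array (0.13, other probe 0.05), and eif4a1b was at -0.17 with other probes at 0.12 and -0.08. The related helicase gene eif4a3, whose product belongs to the exon junction complex, was at -0.07. Whether probes of paralogs share RNA was not tested, since no probe sequences were used here.

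The helicase cofactor eIF4B is also encoded by 2 genes. Of these eif4bb was 1.66-fold lower, at 13.03 on the Tg-labelled array and 13.76 on the WT-labelled array, with other probes at -0.69 and -0.30. The brightest probe of eif4ba was at 0.02 and its dimmer probes at -0.32 and -0.02, so that the contrast rests on the brighter probes. The cap-binding protein genes eif4e1a (-0.11) and eif4e3 (-0.28) differed little, and eif4e1b, an eIF4E form of the germ line, was not above background. The genes of eIF4G2, a relative of eIF4G that works without binding eIF4E, were at 0.06 (eif4g2a) and -0.39 (eif4g2b). The other probe of eif4g2a gave -0.27, and the 3 probes of eif4g2b ranged from -0.39 to 0.30. Over the 10 eIF4 genes above background, 7 were below 0 (70%, against 52.1% of all genes) and the median was -0.14.

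Genes for the factors of start codon choice leaned the other way in part. The gene eif1axb of eIF1A read 11.16 on the Tg-labelled array and 10.66 on the WT-labelled array (0.49), and the eIF1 gene, named eif1b in the files and eif1 by accession, read 12.58 on the Tg-labelled array and 12.09 on the WT-labelled array (0.49). Each rests on 1 probe. The second eIF1A gene, eif1axa, was brighter and at -0.27, with a dimmer probe at 0.08.

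The 4 genes for subunits of eIF2, the carrier of initiator tRNA, were all slightly lower on the Tg-labelled array. The alpha subunit genes eif2s1 and eif2s1l were at -0.13 and -0.19, the beta subunit gene eif2s2 at -0.15 and the gamma subunit gene eif2s3 at -0.31. These differences were at most 1.24-fold, and dimmer probes of eif2s1l, eif2s2 and eif2s3 reached 0.18, 0.26 and 0.04. Of the 5 subunits of eIF2B, which recharges eIF2 with GTP, the regulatory subunit genes eif2b1 and eif2b2 were higher. The level of eif2b2 was 12.22 on the Tg-labelled array and 11.50 on the WT-labelled array, 1.64-fold, by 1 probe, and that of eif2b1 was 12.69 on the Tg-labelled array and 12.25 on the WT-labelled array (0.44), with a dimmer probe at 0.73. The third regulatory subunit gene, eif2b4, was at -0.11, and the catalytic subunit genes eif2b3 and eif2b5 were at -0.29 and -0.08. The subunits of this complex therefore did not move together on these arrays.

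The regulators taken by the same name pattern were mostly lower on the Tg-labelled array. Of 6, 5 were above background, 4 of these lay below 0 (80%, against 52.1% of all genes) and the median was -0.55. The eEF2 kinase gene eef2k, whose product slows elongation, read 11.16 on the Tg-labelled array and 12.004 on the WT-labelled array, 1.80-fold lower, and its dimmer probes gave -0.59 and -0.75. The gene of the eIF4E-binding protein 4E-BP2, eif4ebp2, read 14.04 on the Tg-labelled array and 14.74 on the WT-labelled array (1.62-fold lower, 1 probe). The eIF2 kinase genes were lower by smaller steps. For eif2ak3, the gene of PERK, which senses stress in the endoplasmic reticulum, the difference was -0.55. It rests on 1 probe and is also the median of the group. For eif2ak1, the gene of the heme-regulated kinase HRI, the difference was -0.39. Its dimmer probes gave -0.46, above background on the WT-labelled array only, and 0.37, above background on neither array. The gene of PKR, eif2ak2, was not above background. Above 0 was eif4enif1, the gene of the eIF4E transporter (0.29).

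Phosphorylated eIF2 is known in mammals to favour translation of ATF4, a transcription factor of the stress response. Of 16 genes of that response 14 were matched and above background, 8 above 0 and 6 below, with a median of 0.03. The transcription factor genes atf4a and atf4b were at -0.36 and 0.01. The lowest was ppp1r15a, the gene of a subunit that directs dephosphorylation of eIF2, at 9.43 on the Tg-labelled array and 12.07 on the WT-labelled array, 6.24-fold lower, with its other probe at -2.35. The stress factor gene ddit3 was at -0.81, and cebpg (-0.21), cebpb (-0.095) and shmt2 (-0.05) also lay below 0. Above 0 were sesn2 (0.59), trib3 (0.44), atf3 (0.43), phgdh (0.40), psat1 (0.14), chac1 (0.12) and asns (0.05). The list thus had no common direction.

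Elongation factor genes were among the brightest on the arrays. Of the eEF1B subunit genes, whose products recharge eEF1A, the 3 above background were lower on the Tg-labelled array. The gamma subunit gene eef1g read 17.00 on the Tg-labelled array and 17.51 on the WT-labelled array, 1.43-fold lower, and its 4 probes ranged from -0.52 to -0.22. The delta subunit gene eef1db was at -0.29 with a dimmer probe at 0.05, and the exchange subunit gene eef1b2 at -0.20 by 1 probe.

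The gene of the translocase eEF2, eef2l in the files and eef2b by accession, showed how the choice of probe can matter. Its 6 probes were all lower on the Tg-labelled array but by different amounts. The brightest read 18.64 on the Tg-labelled array and 18.80 on the WT-labelled array (-0.17), and the second brightest gave -0.27. The remaining 4, between 11.61 and 14.88 on the Tg-labelled array, gave -0.64, -1.14, -1.20 and -1.12 in order of signal. The highest signal of either array was 19.16, so the least changed probes of eef2l were also those nearest the top of the scale. Another gene annotated as similar to eEF2, eef2l2, went the other way, at 10.38 on the Tg-labelled array and 9.52 on the WT-labelled array, 1.81-fold higher, with its other probe at 0.74.

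Factor eIF5A, which carries the modified amino acid hypusine and helps the ribosome through difficult stretches, is encoded by eif5a and eif5a2. The brightest probe of eif5a2 read 15.10 on the Tg-labelled array and 15.86 on the WT-labelled array, 1.70-fold lower. Its other bright probe was at -1.11, and 2 dimmer probes were at 0.12 and 0.06, so that its 4 probes spanned 1.22 log2 units, the widest range among the 52 genes for which 2 or more probes passed the limit on both arrays. The gene eif5a was at -0.17, with a dimmer probe at 0.21. Of the remaining factors, eif5, which triggers GTP hydrolysis by eIF2, was at 0.26 with all 4 probes above 0, eif6, which keeps the large subunit from joining, was at -0.14, and the eRF1 gene etf1 was at 0.22 with its other probe at 0.66.

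**Figure D3:**
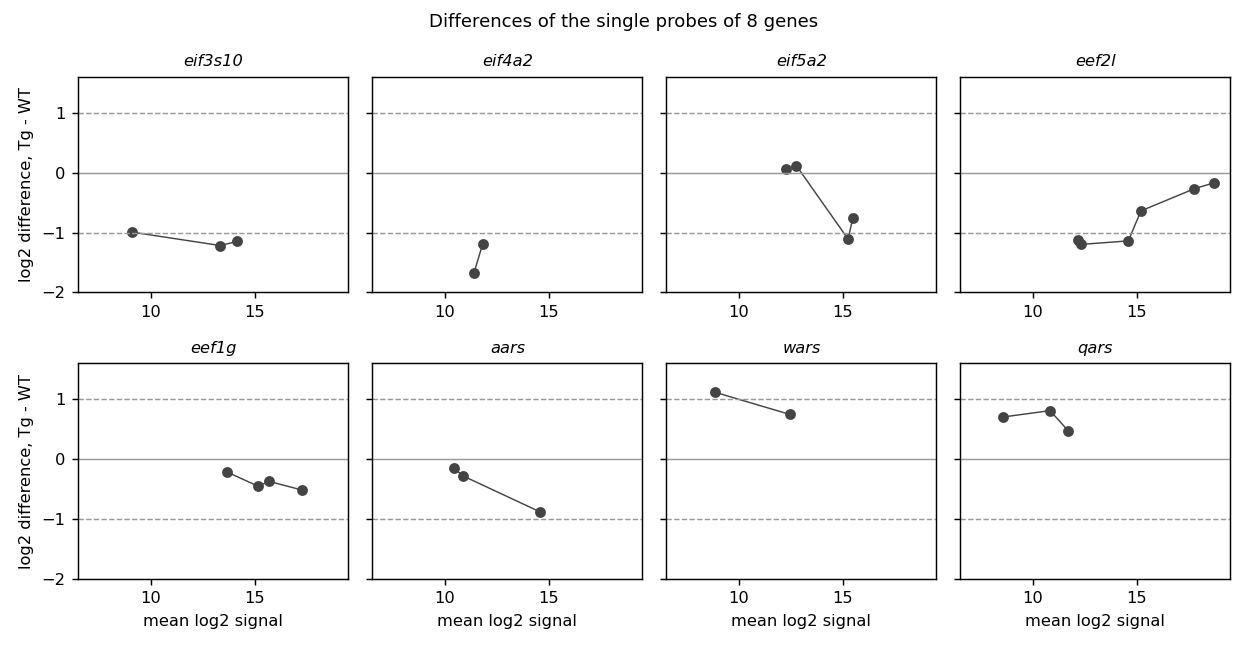
Log2 difference (Tg-labelled array minus WT-labelled array) of each probe of 8 genes against the mean log2 signal of that probe, with dashed lines at 2-fold. The probes of eif3s10 lie together near -1, those of eef2l approach 0 as their signal increases, and those of eif5a2 fall into a pair near 0 and a pair near or below -0.76.

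The tRNA synthetase genes had no common direction. Of 23, 22 were above background, 11 above 0 and 11 below, with a median of 0.00 and none beyond 2-fold. For the 15 cytosolic enzymes the median was -0.01, with 7 above 0 and 8 below. The largest difference toward the Tg-labelled array was that of wars, the tryptophan enzyme gene, at 12.82 there and 12.08 on the WT-labelled array, 1.68-fold, and its dimmer probe read 9.40 on the Tg-labelled array and 8.28 on the WT-labelled array (1.12). The glutamine enzyme gene qars followed at 11.92 on the Tg-labelled array and 11.45 on the WT-labelled array (0.48), with dimmer probes at 0.81 and 0.70, and the histidine enzyme gene hars was at 0.47 with its other probe at 0.28. All probes of these 3 genes were thus higher on the Tg-labelled array.

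Lowest was aars, the alanine enzyme gene, at 14.12 on the Tg-labelled array and 15.00 on the WT-labelled array, 1.84-fold. Its dimmer probes gave -0.28 and -0.15, which do not reach 1.5-fold, and a probe filed under another name but assigned by accession to the same gene, aars1, gave -0.10. The methionine enzyme gene mars was at -0.40 by 1 probe, and the isoleucine enzyme gene iars at -0.24, with all 3 probes between -0.32 and -0.17. The other cytosolic genes were within 1.16-fold by their brightest probes. These included both chains of the phenylalanine enzyme, farsa (0.17) and farsb (-0.05), and the genes kars (-0.15), lars (-0.15), sars (-0.06), yars (-0.01), rars (0.02), tars (0.17) and cars (0.21), named for lysine, leucine, serine, tyrosine, arginine, threonine and cysteine. Dimmer probes went further in either direction, to 0.66 for farsa, 0.46 for rars and 0.22 for kars, and to -0.25 for cars and -0.26 for tars.

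The mitochondrial enzymes were dimmer, and 7 of 8 genes were above background. The serine enzyme gene sars2 was lowest, at 9.16 on the Tg-labelled array and 10.05 on the WT-labelled array, 1.86-fold, with dimmer probes at -0.62 and -0.03. Highest of those above background on both arrays was the arginine enzyme gene rars2, which read 7.71 on the Tg-labelled array and 7.06 on the WT-labelled array (1.56-fold higher, 1 probe near the background limit). The genes fars2 (-0.09), wars2 (-0.17), pars2 (0.02) and iars2 (0.24) differed less, and the median of the group was 0.02. Cytosolic and mitochondrial genes for the same amino acid did not always move alike. Signs were opposite for wars (0.75) and wars2 (-0.17), and for iars (-0.24) and iars2 (0.24), the last by 1 probe near the background limit. By the brightest probes the sign was shared but not the size for sars (-0.06) and sars2 (-0.89), and for rars (0.02) and rars2 (0.645). These sizes depended on the probe, since the dimmer probes of sars and rars gave -0.19 and 0.46 and those of sars2 -0.62 and -0.03. For phenylalanine, farsb (-0.05) and fars2 (-0.09) were both near 0, and farsa was at 0.17.

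**Figure D4:**
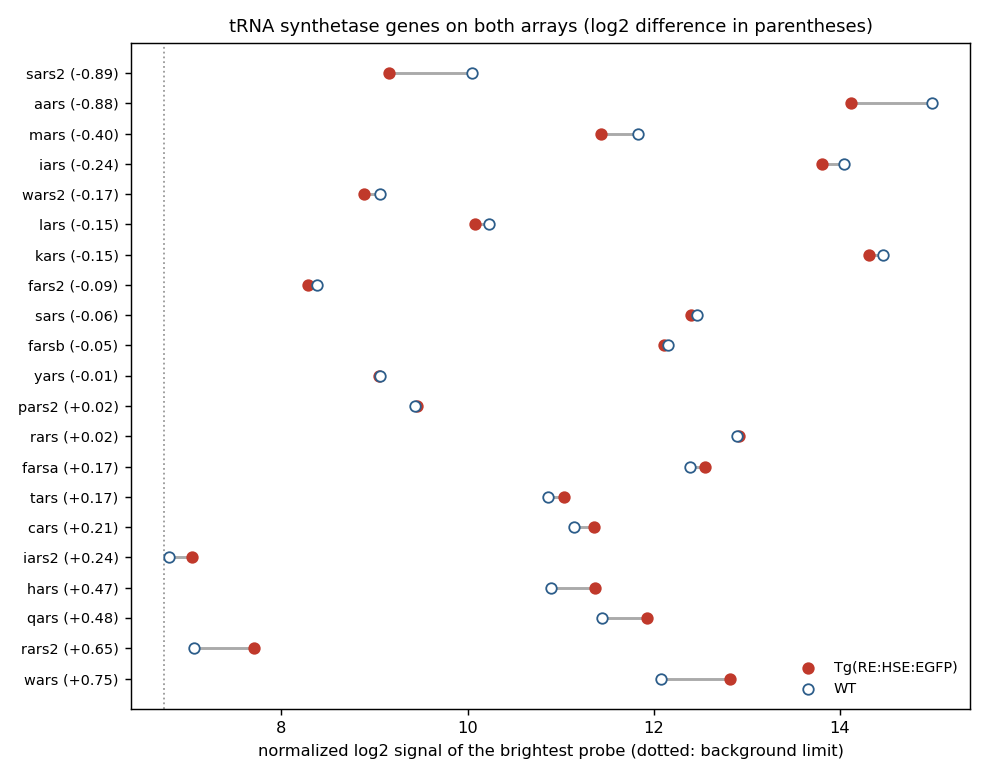
Normalized log2 signal of the brightest probe of each of the 21 synthetase genes above background on both arrays, with the Tg-labelled array in filled red and the WT-labelled array in open blue, ordered by the difference given in parentheses. The dotted line is the background limit of the Tg-labelled array. The red point is to the left in 11 genes and to the right in 10, and sars2, aars and wars have the widest gaps.

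With 1 array per group, probes of the same gene give the only repeat measure, which covers probe error and not the spread between embryos. Over these 52 genes, the differences of the 2 brightest probes lay a median of 0.18 apart, and 90% lay within 0.46, against 0.18 and 0.57 over 5637 such genes in all. Every probe of eif4a2, eif3s10, eef2k, eef2l2 and wars passed 1.5-fold in the direction of the brightest one, whereas for aars, sars2, eif3hb, eif4bb and eif5a2 some did not. All probes had the same sign in 31 of the 52 genes (59.6%), against 72.3% of all such genes. The brightest probe lay below the mean of the other probes in 33 of the 52 (63.5%), against 60.0% of all. Brightest minus the mean of the others had a median of -0.17 in the 52 genes, against -0.07 over all such genes. The choice of the brightest probe thus lowered the differences of the genes described more than those of genes in general.

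The shift below 0 went with brightness. Of 21 genes with a mean log2 signal of at least 14, 20 were lower on the Tg-labelled array, with a median of -0.31, eif5 being the exception. Over all 806 genes that bright, 52.4% were lower and the median was -0.01. The 21 genes with a mean signal between 12 and 14 had a median of -0.11 (13 below 0), the 21 between 10 and 12 one of 0.02 (10 below 0), and the 11 dimmer genes one of -0.01 (6 below 0). The bright genes were mainly the subunits of eIF3, eIF2 and eEF1B together with eif5a, eif5a2, eef2l, eif4a3, eif4ebp2, aars and kars. All these values are those of the brightest probe of each gene, and the split by brightness was not made with other probes.

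Other genes of translation were read from a list of 42, of which 37 were matched and 36 were above background. Of these 1 was at least 2-fold higher on the Tg-labelled array and 1 lower (2.78% each, against 4.71% and 3.56% of all genes). At 1.5-fold 2 were higher and 5 lower (5.56% and 13.9%, against 12.3% and 12.5% of all genes). The median was -0.08, or 0.01 with the mean over probes. Higher was tsfm, the gene of the mitochondrial exchange factor EF-Ts, at 9.29 on the Tg-labelled array and 7.32 on the WT-labelled array, 3.93-fold, though its other probe gave 0.55. The mitochondrial elongation factor gene gfm1 was at 0.77, with a dim probe at -0.02. Lower was mknk2b, the gene of a kinase that phosphorylates eIF4E, which was above background on the WT-labelled array alone, at 6.60 on the Tg-labelled array and 8.11 on the WT-labelled array, at least 2.58-fold. The gene pdcd4a, whose product inhibits eIF4A, was at -0.98 with a dim probe at -0.67. The poly(A)-binding protein gene pabpc1a was at 15.00 on the Tg-labelled array and 15.75 on the WT-labelled array (-0.76), and its 4 probes ranged from -0.80 to -0.59. The gene dph2, for an enzyme that modifies eEF2, was at -0.66 by 1 probe. Of the eRF3 genes on the list, gspt1l was at -0.65 and gspt1 at 0.21.

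Markers of several tissues differed between the arrays alongside these genes. All 10 skeletal muscle genes were higher on the Tg-labelled array, with mean log2 levels of 16.41 there and 15.38 on the WT-labelled array (median difference 0.97). All 4 neuronal genes were higher (median 0.58), and so were the 3 matched lens genes (1.096). Of 6 matched genes of dividing cells, 5 were lower on the Tg-labelled array, with mean levels of 13.34 there and 13.91 on the WT-labelled array (median -0.69), and 5 of 7 erythrocyte genes were lower and 1 was equal (median -0.43). Liver (0.63, 3 of 5 above 0) and epidermis genes (-0.18, 3 of 4 below 0) were mixed, and of 5 matched exocrine pancreas genes 3 were not above background. Their part in the differences of translation genes was not tested.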

How the data were processed

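Total RNA of 1 Tg-labelled and 1 WT-labelled sample was measured on 1-colour Agilent arrays, which the authors scanned and read with Feature Extraction. The authors deposited normalized log2 signals, 1 for each of 43553 probes. The version and the normalization are not given in the sources used here, nor is whether an array stands for several, although the methods speak of triplicates. The series table repeats these values. The authors' files name no genome assembly for the probes, so no positions are given, and no sequence tables were used here.

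Arrays were scaled by subtracting the 75th percentile of each, a shift of -0.001 in every difference. Symbols of the files defined the genes described, other probes were named through RefSeq accessions where possible (24707 probes), and a gene was represented by its brightest probe. A gene above background on 1 array was counted by its bound. On the dim array this took the probe's signal or the lowest signal that passed the limit, whichever was higher. The number of arrays limits the precision, 1 per group allows no test, and p-values are absent for that reason. Genes and lists were chosen with earlier results of these data known. Named are genes beyond 1.5-fold, up to 4 of each role with the largest differences, paralogs of the main families, genes whose probes disagree, and up to 6 of the list of other translation genes. Other genes are named as context. The 2-fold call was tested on simulated data, with changes planted only in genes well above the background limit. The planted changes were larger than 2-fold. The noise was an assumed level, since 1 array per group gives none, so the test does not show how the call performs on these arrays. Changes in dim genes, disagreement between probes and the 1.5-fold counts were not tested this way. Software was numpy 2.4.6, pandas 2.3.3 and matplotlib 3.10.9 under Python 3.11.15.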

Additional observations from a re-analysis of the deposited data

How the results depend on the processing

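No paired analysis was possible because each group has 1 array. Quantile normalization, median centring, no scaling and the table of the series moved no count or median past the limits used, 1.5 times for a count and 0.1 log2 units for a median. The genes eif3s10 and eif4a2 were at least 2-fold lower in each of these settings, with each filter on dim probes, with the mean over probes and with each gene's middle probe in place of its brightest. Where all probes above background had to pass, 1 gene remained 2-fold lower, and 5 instead of 9 were 1.5-fold lower. Among these 5, eif3c and eif4ebp2 have 1 probe each, so that the rule could not remove them. Counting every probe gave 1 probe 2-fold higher and 8 lower, and 13 and 22 at 1.5-fold. These are single probes, and a gene can enter more than once, as eef2l did with probes at -1.14, -1.20 and -1.12. With the name pattern on current symbols 2 genes were 2-fold higher and 3 lower, and 9 were 1.5-fold higher and 13 lower. The base of these counts is not that of the main counts. No matching shares of all probes or genes were worked out, so an excess in either direction was not tested. Over the genes of the main counts, a threshold of 1.5-fold in place of 2-fold gave 5 and 9, and 4-fold left 0 lower. With the mean over probes the median of eIF2 and eIF2B was -0.017 and that of eIF5A -0.20. That of etf1, the 1 termination gene that the name pattern took, was 0.44. With every probe counted these medians were -0.018, -0.0515 and 0.44, and that of eIF1 and eIF1A was 0.28. With the limit at the 99th percentile the median of the mitochondrial synthetases was -0.13. The median of all genes described ranged from -0.15 to -0.07 over these settings, and that of the list of other translation genes was 0.01 with the mean over probes. Single genes moved by more than 0.1 in 47 values and by less in 397, and all of the 47 came from the choice of probe. With the mean over all probes, dim ones included, aars (-0.44), sars2 (-0.51), eif4bb (-0.57), eif5a2 (-0.42) and eif3hb (0.42) no longer reached 1.5-fold, eef2l (-0.75), eif2b1 (0.59) and qars (0.66) did, and genes near 0 such as eif2s2 (0.05), eif5a (0.02) and tars (-0.04) changed sign. Whether signal near the top or the bottom of the scale limited the difference of a probe was not tested.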

Other observations

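Some genes of the same families carry other names in the files and were found by current symbol. The same search took eef1akmt1, eef1akmt2 and eef2kmt, genes of enzymes that modify eEF1A or eEF2 and not of factors. Of 34 symbols found this way 1, aars1, is the current name of aars, already described. On at least 1 array 31 of the 34 were above background, with a median of -0.10. Of the 31, 2 were at least 2-fold higher on the Tg-labelled array (6.45%, against 4.71% of all genes). At least 2-fold lower was 1 (3.23%, against 3.56% of all genes). The 34 include the eEF1A genes, whose products deliver aminoacyl-tRNA to the ribosome. The main one, eef1a1l1, read 18.51 on the Tg-labelled array and 18.65 on the WT-labelled array (-0.14). Its 4 brightest probes gave -0.14 to -0.05 and its 4 dimmer ones -0.61 to -0.39, so that, as for eef2l, the probes near the top of the scale differed least. The gene eef1a1b was at 16.25 on the Tg-labelled array and 16.57 on the WT-labelled array (-0.32), and eef1a1l2 was at -0.45, with probes from -0.63 to 1.00. The gene eef1a2, whose mammalian counterpart serves muscle and neurons, was above background on the Tg-labelled array only, at 8.29 there and 6.40 on the WT-labelled array, at least 2.96-fold higher, and eef1a1a likewise, at 7.75 on the Tg-labelled array and 6.70 on the WT-labelled array, at least 2.03-fold higher. Both rest on 1 probe, and the skeletal muscle and neuron lists were higher on the Tg-labelled array as well, at medians of 0.97 and 0.58. Whether these values belong together was not tested.

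The eEF2 gene eef2a.1 was 2.61-fold lower on the Tg-labelled array, at 9.72 there and 11.10 on the WT-labelled array, with a dim probe at -0.65. The scaffold gene eif4g1a of the cap complex was at -0.62 by its brightest probe, and its other probes gave -1.21 to -0.64. The eIF4E-binding protein genes eif4ebp3l (-0.65, dimmer probe -0.10) and eif4ebp3 (-0.61, other probe -0.43) were lower, and eif4ebp1 was at -0.12 with dimmer probes up to 0.33. Higher were eif1b, a gene of eIF1, at 13.05 on the Tg-labelled array and 12.21 on the WT-labelled array (1.79-fold, other probe 0.90), and the cap-binding protein genes eif4eb (0.61, other probe 0.65) and eif4e1c (0.35, other probes 0.60 and 0.62). The related gene eif4e2rs1 was at 0.39 by 1 probe, whereas eif4e2 was at -0.31 with other probes at -0.31 and -0.12.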
